A study of Rattus norvegicus with 18 samples.

Results

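The data described here compare the paraventricular nucleus of the hypothalamus (PVN) with the nucleus tractus solitarius of the hindbrain (NTS). Members were chosen by label alone: the 6 arrays labelled PVN and the 6 labelled NTS, 12 of the 18 arrays of the series, with all 23188 gene probe sets of 24834 in all. Every sample came from an adult female Sprague-Dawley rat whose ovaries had been removed (OVX), so no group had ovarian hormones of its own. The stated age of 90 days is given by the study's methods for the rats at surgery, before recovery and treatment. EB-treated rats received 10 µg of estradiol benzoate (EB, which the sample labels write as 17β-estradiol) in 0.1 mL of oil on Days 1 and 2. Oil-treated rats received the vehicle, and tissue was taken on Day 4. Each region has 3 EB-treated and 3 Oil-treated samples, named below by region, treatment and replicate number, such as PVN Oil 1. Going by the study's methods both regions were punched from the same rats, but no label says which samples share a rat. Tissue came from bilateral 1 × 3 mm punches of frozen brain placed by atlas, so a punch holds neighbouring tissue as well as the named nucleus. In such bulk tissue, fewer cells of a type and less RNA per cell cannot be told apart. RNA was measured on Rat Clariom S Pico arrays, and values are signal intensity (Log 2), in which a difference of 1 is a fold change of 2.

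As background, the PVN lies beside the upper part of the third ventricle. Its large neurosecretory neurons make oxytocin and vasopressin for release in the posterior pituitary, and its smaller neurons make releasing hormones and project to the brainstem and spinal cord. The NTS receives taste and visceral afferents of the cranial nerves and borders the dorsal motor nucleus of the vagus, the area postrema and the fourth ventricle. Hox genes encode homeodomain transcription factors that pattern the embryonic hindbrain and spinal cord along the head-to-tail axis, whereas forebrain tissue forms in front of their expression limits. Glycine is an inhibitory transmitter mainly of the brainstem and spinal cord.

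The region labels were first set against their defining markers. Oxt, the oxytocin precursor gene, read 15.78, 16.10 and 12.36 on PVN EB 1, 2 and 3, and 6.97, 14.87 and 6.92 on PVN Oil 1, 2 and 3. In the NTS it lay between 4.97 and 6.39, below the median of the background probe sets in all 6 samples. PVN Oil 1 and PVN Oil 3 were thus also below background for Oxt, although they remained above every NTS sample. Avp, the vasopressin precursor gene, showed the same order, at 7.11 and 6.80 in those samples, 10.46 to 15.25 in the other 4 PVN samples, and 5.94 to 6.54 in the NTS. Sim1, a transcription factor needed for PVN neurons to form, was above background in 5 of 6 PVN samples (lowest 6.96, median 8.44, highest 10.33) and in no NTS sample (3.97 to 4.95). Of the remaining PVN markers, Crh, which encodes corticotropin-releasing hormone, overlapped between regions (difference 0.73 ± 0.43 SE, adjusted p = 0.20). Trh, which encodes thyrotropin-releasing hormone, was above background in 1 PVN sample, and Otp, a hypothalamic transcription factor, differed by 0.68 ± 0.18.

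Among the NTS markers, Gcg, the preproglucagon gene expressed by a group of neurons in the caudal NTS, read 13.06, 11.16 and 11.35 on NTS EB 1, 2 and 3, and 12.24, 12.10 and 7.25 on NTS Oil 1, 2 and 3. All 6 PVN samples lay between 4.40 and 5.04. NTS Oil 3 thus stood apart at 7.25, below its own background median. Dbh, the noradrenaline-synthesizing enzyme, was below the background median in all 12 samples, yet NTS values (lowest 4.77, median 7.14, highest 7.33) were above every PVN value (3.85 to 4.23). Th, the first enzyme of catecholamine synthesis, did not separate the regions: the PVN ran from 7.70 to 12.62 and the NTS from 7.50 to 12.12. Phox2a, a transcription factor of noradrenergic neurons, was below background throughout.

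**Figure D1:**
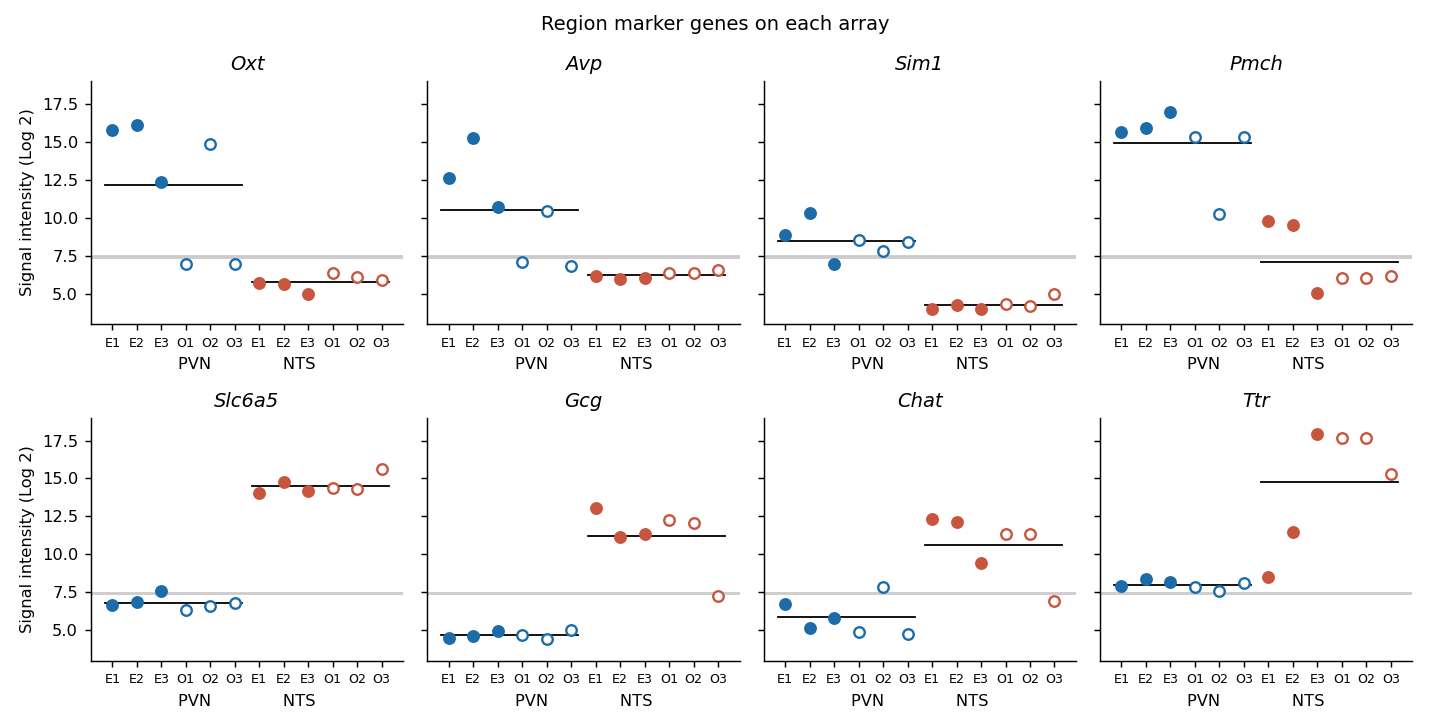
Signal intensity (Log 2) of 8 marker genes on each of the 12 arrays (E, EB-treated, filled; O, Oil-treated, open; PVN blue, NTS red), with black lines at the region means and a grey band over the range of the arrays' background medians (7.37 to 7.47). PVN Oil 1 and 3 are low for Oxt and Avp, NTS Oil 3 is low for Gcg and Chat, and Ttr ranges from 8.49 to 17.91 within the NTS.

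Some arrays stood apart within their region. PVN Oil 1 and PVN Oil 3 read 10.01 and 9.75 for Slc6a3, the dopamine transporter gene, against 5.84 to 6.81 in the other 4 PVN samples, and 12.52 and 12.62 for Th against 7.70 to 9.88. The mean over 14 measured midbrain dopamine and mammillary genes was 8.52 on both, against 6.47 to 6.79 on the other PVN arrays. PVN Oil 2 had the lowest PVN mean over 15 endothelial and mural cell genes (8.40, against 9.88 to 10.70). In the study's heatmap of PVN genes differing by treatment, PVN Oil 2, going by its array title, was the Oil-treated sample that clustered apart. PVN EB 1 and 2 had the highest means over 10 thalamus and zona incerta genes (10.05 and 9.85, against 8.71 to 8.79 on the other PVN arrays). In that list 3 genes were called higher in the PVN (30%, against 2.63% of all probe sets) and 1 in the NTS (10%, against 2.98%). NTS EB 3 had the highest mean over 12 choroid plexus genes (13.86, against 7.09 to 11.74 on the other NTS arrays) and the lowest over 13 neurofilament and large axon genes (11.91, against 13.12 to 13.55). NTS Oil 3 had the lowest mean in its region over 24 dorsal vagal complex genes (8.11, against 9.37 to 9.81 on the other NTS arrays). This was close to the PVN arrays, which ran from 7.78 to 8.09. PVN Oil 1 and 3 were also the most alike pair of PVN arrays and NTS Oil 1 and 2 the most alike pair of NTS arrays, with correlations of 0.9961 and 0.9967 over all gene probe sets, and no 2 arrays were identical. The part of punch placement in these differences was not tested. Slc6a3 was itself called higher in the PVN (1.72), and was not without PVN Oil 1 and 3 (0.76, adjusted p = 0.20). Calls named below that were lost without these arrays are given both ways.

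**Figure D2:**
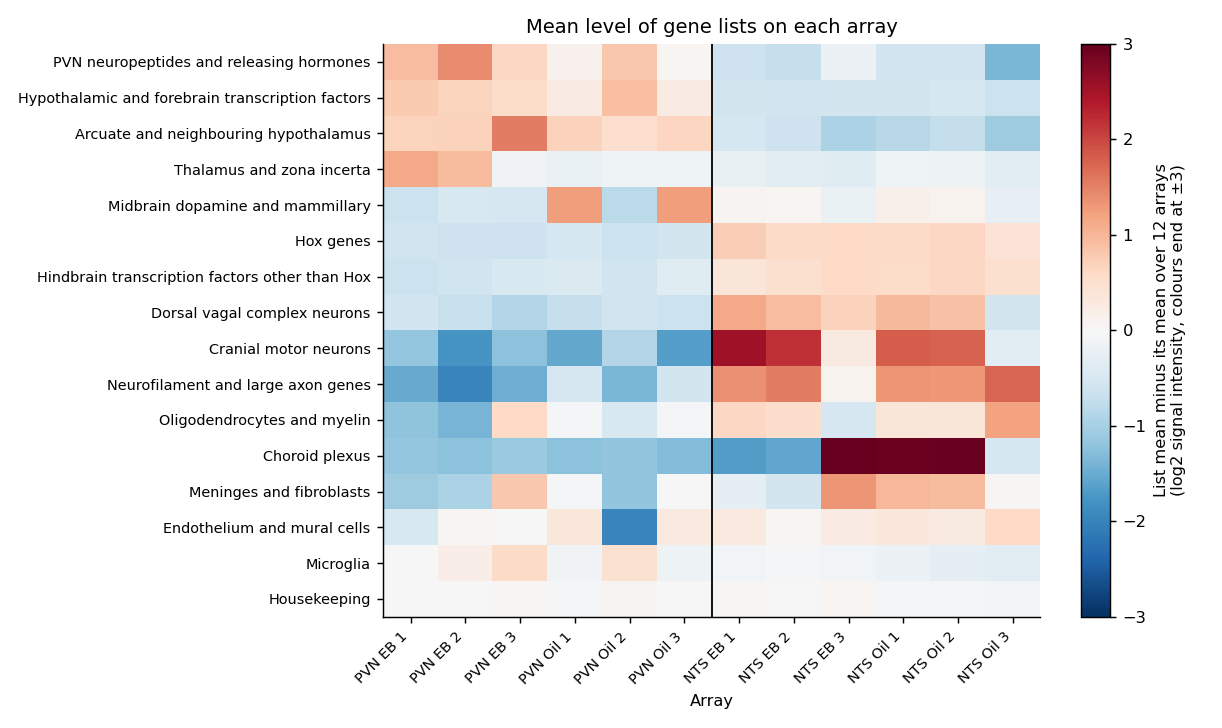
Mean signal intensity (Log 2) of 16 gene lists (rows) on each array (columns), shown as the difference from the list's own mean over the 12 arrays, with colours ending at ±3. Hox and hindbrain lists are uniform within a region, midbrain genes are high on PVN Oil 1 and 3, and the choroid plexus mean runs from 7.09 to 13.86 within the NTS.

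The regions differed in many genes, and a gene was called at an adjusted p of 0.05 or less (limma, Benjamini-Hochberg over all gene probe sets) with a fold change of 2 or more. By this rule 609 probe sets, 2.63% of all, were higher in the PVN and 692, 2.98% of all, were higher in the NTS. Of these, 432 and 520 had a gene symbol. All 6 PVN samples lay above all 6 NTS samples for 9.5% of all probe sets, and the reverse held for 8.22%. In 483 of the 1301 called, every sample of the lower region was below its array's background median, and 164 were below it in all 12 samples. Where any sample of the lower region was below background, the background median of its array took its place and the fold change is given as a lower bound ("at least"). The median difference over all gene probe sets was -0.0011. The share of probe sets above background was 53.4% in the PVN and 53.5% in the NTS on average (two-sided exact permutation test, p = 0.777), while the background median itself was lower in the PVN (7.41 against 7.45, p = 0.026 in the same test).

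**Figure D3:**
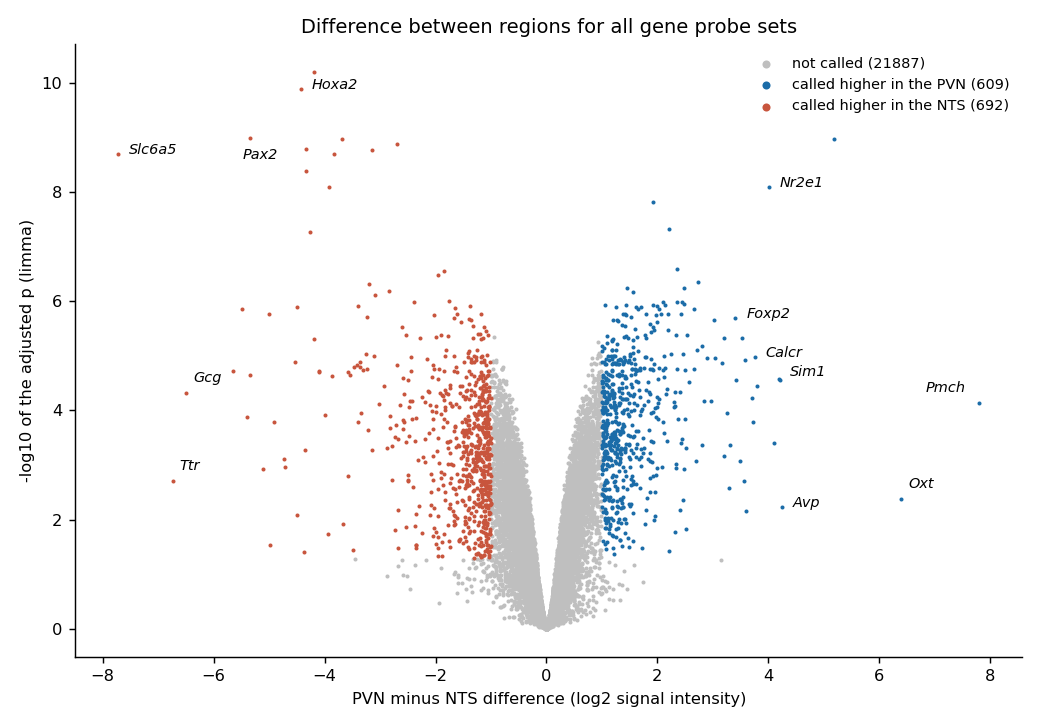
PVN minus NTS difference (log2 signal intensity, x axis) against -log10 of limma's adjusted p (y axis) for 23188 gene probe sets. Blue points are the 609 called higher in the PVN, red points the 692 called higher in the NTS, and selected genes are named.

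The promoters of 4 genes that separate the regions are shown because each belongs to a group described below: the PVN peptides Oxt and Avp, the NTS peptide gene Gcg, and Hoxa2. Each is the 250 bases before the annotated start, 5′ to 3′ on the gene's strand, from RefSeq on build GRCr8. Oxt is at chr3:138235504-138235753 (plus strand) and Avp at chr3:138248523-138248772 (minus strand). Gcg is at chr3:67531534-67531783 and Hoxa2 at chr4:82595693-82595942 (both minus strand).
Oxt: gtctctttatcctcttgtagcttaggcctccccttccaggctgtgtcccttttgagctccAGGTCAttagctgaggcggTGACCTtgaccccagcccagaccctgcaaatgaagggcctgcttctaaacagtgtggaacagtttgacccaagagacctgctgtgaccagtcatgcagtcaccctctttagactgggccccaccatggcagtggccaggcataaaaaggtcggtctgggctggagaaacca
Avp: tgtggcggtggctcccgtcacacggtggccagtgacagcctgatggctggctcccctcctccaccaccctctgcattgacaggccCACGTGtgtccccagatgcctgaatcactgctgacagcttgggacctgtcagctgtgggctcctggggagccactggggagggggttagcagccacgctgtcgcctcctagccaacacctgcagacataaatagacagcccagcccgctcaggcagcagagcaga
Gcg: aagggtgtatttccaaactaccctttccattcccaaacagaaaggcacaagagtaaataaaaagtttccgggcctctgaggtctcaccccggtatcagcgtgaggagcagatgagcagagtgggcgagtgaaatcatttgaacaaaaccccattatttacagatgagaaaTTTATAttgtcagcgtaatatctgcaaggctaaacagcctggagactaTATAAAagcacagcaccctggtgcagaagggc
Hoxa2: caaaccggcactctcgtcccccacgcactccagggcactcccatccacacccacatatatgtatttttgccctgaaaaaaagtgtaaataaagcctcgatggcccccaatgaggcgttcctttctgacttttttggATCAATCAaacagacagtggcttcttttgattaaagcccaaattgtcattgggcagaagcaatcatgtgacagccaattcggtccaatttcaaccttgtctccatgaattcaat
Capitals mark, on either strand, AGGTCA (the core motif of nuclear receptors) in Oxt, CACGTG (the E-box of basic helix-loop-helix factors) in Avp, TATAAA (the element bound by the core promoter factor TBP) in Gcg and TGATTGAT (a motif of PBX and HOX proteins) in Hoxa2. The shares of all 33469 rat promoter windows of this length that hold each were 14.1% for AGGTCA, 5.59% for CACGTG, 12.9% for TATAAA and 0.69% for TGATTGAT. Oxt held 2 matches to AGGTCA, Gcg held 2 to TATAAA, and Hoxa2 held 1 to TGATTGAT, on its opposite strand. CACGTG reads the same on both strands and stands once in Avp. A match describes the letters and does not show binding.

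Hox genes separated the regions in an ordered way. Of 23 measured, 9 were higher in the NTS and 0 in the PVN, that is 39.1% against 2.98% of all probe sets, with a median difference of -0.69. All 6 measured members of paralogue groups 1 to 4 were called, 3 of 7 in groups 5 to 8 and 0 of 10 in groups 9 to 13. Hoxa2, which is the only Hox gene expressed as far forward as the border between the first rhombomeres, had the smallest adjusted p of the called genes named here. It read 8.93 to 9.51 in the NTS and 4.86 or less in the PVN, below background in every PVN sample, and so was at least 3.35-fold higher in the NTS (difference -4.43 ± 0.11 SE, adjusted p = 1.3e-10). Hoxb5 was the brightest, at 10.81 to 12.35 in the NTS against 7.27 to 7.72 in the PVN, or at least 18.7-fold higher. Hoxc4 (8.12 to 9.29 in the NTS) and Hoxb3 (7.36 to 8.69) were at least 2.43-fold and 1.57-fold higher. Hoxb4, Hoxd3, Hoxd1 and Hoxb8 were called with differences of -2.84, -1.66, -1.22 and -1.93 although they lay below background in all 12 samples. Hoxa6 was called at -2.04 and was above background in 3 NTS samples. In no called Hox gene did the regions overlap. The 10 genes of groups 9 to 13 had differences between -0.27 and 0.68, all below background, the highest being Hoxd12.

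**Figure D4:**
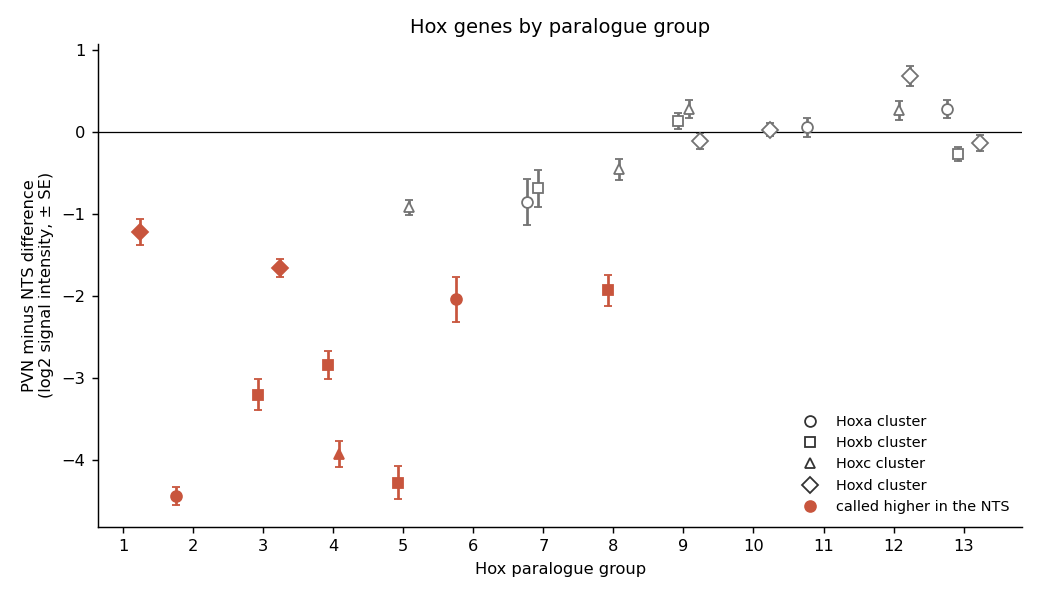
PVN minus NTS difference (log2 signal intensity, bars are SE) of 23 Hox genes by paralogue group, 1 at the head end to 13 at the tail end, with symbols for the 4 clusters and red for genes called higher in the NTS. All members measured in groups 1 to 4 lie below zero, from -4.43 to -1.22, and those in groups 9 to 13 lie between -0.27 and 0.68.

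Other transcription factors of hindbrain development followed the same direction, with 9 of 26 higher in the NTS (34.6%, against 2.98% of all probe sets) and 1 in the PVN (3.85%, against 2.63%). Pax2 and Pax8, paired-box factors of inhibitory neurons of the dorsal hindbrain and cord, were uniform within each region. Pax2 read 9.19 to 10.24 in the NTS and 4.12 to 4.25 in the PVN (at least 4.46-fold, difference -5.35 ± 0.16, adjusted p = 1.0e-09). Pax8 read 8.08 to 8.70 and 4.38 to 4.96 (at least 1.98-fold). Mab21l2, a developmental regulator, was at least 23.9-fold higher (11.58 to 12.93 in the NTS, 5.69 to 8.12 in the PVN). The homeodomain cofactors Meis1 and Pbx3, which bind DNA with HOX proteins, were expressed in both regions and were 6.08-fold and 2.20-fold higher in the NTS. Evx1, a homeodomain factor of spinal and hindbrain interneurons, was at least 1.17-fold higher there. The exception was Nr2f2, a nuclear receptor also used widely in the hypothalamus, which was 3.57-fold higher in the PVN.

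Hypothalamic and forebrain transcription factors were the counterpart: 17 of 38 were higher in the PVN (44.7%, against 2.63% of all probe sets) and 0 in the NTS, with a median difference of 0.86. Sim1 was at least 2.01-fold higher in the PVN (difference 4.19 ± 0.43, adjusted p = 2.7e-05), and Arnt2, its dimer partner, was 2.21-fold higher and bright in both regions (11.63 to 12.03 against 10.33 to 10.96). Outside the list, Nr2e1, an orphan nuclear receptor of the developing forebrain, had a PVN range of 8.26 to 9.35 and an NTS range of 4.64 to 5.03 (at least 2.57-fold, adjusted p = 8.1e-09). Foxp2, a forkhead factor, was at least 3.66-fold higher (8.60 to 10.06 against 5.43 to 6.31). Dlx2, a factor of forebrain GABA neurons, was at least 1.27-fold higher. Six3, Emx2 and Otx1, which mark the anterior neural plate and forebrain, were called with differences of 2.29, 2.54 and 1.25 but were below background in all 12 samples. In the list as a whole 21 of 38 members were below it in all 12. Lhx8 and Fezf1 varied most among PVN samples. Lhx8, a factor of basal forebrain neurons, read 10.99, 9.73 and 8.39 on PVN EB 1, 2 and 3, 12.11 on PVN Oil 2, and 6.26 or less on PVN Oil 1 and 3. Fezf1, a factor of the ventromedial hypothalamus, read 12.10 on PVN EB 3 and 6.58 to 8.29 on the other 5. Both were called without PVN Oil 1 and 3 (5.17 and 4.15), but Lhx8 was not called within Oil-treated arrays alone (2.90, adjusted p = 0.21), nor Fezf1 within EB-treated arrays alone (4.39, adjusted p = 0.053).

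The largest difference toward the PVN was in a peptide gene of a neighbouring area. Pmch encodes melanin-concentrating hormone, made mainly in the lateral hypothalamus and zona incerta. It read 15.67, 15.93 and 16.93 on PVN EB 1, 2 and 3, and 15.31, 10.22 and 15.32 on PVN Oil 1, 2 and 3. In the NTS it read 9.81 and 9.52 on EB 1 and EB 2, above background, and 5.03 to 6.14 on the other 4. The regions did not overlap, and the fold change was at least 105, with 4 of 6 NTS samples below background (difference 7.80 ± 0.94, adjusted p = 7.3e-05). Hcrt, the orexin precursor of the lateral hypothalamus, was at least 5.14-fold higher in the PVN, with 12.36 and 12.03 on PVN Oil 1 and 3 against 8.07 to 10.06 on the others. Npvf, a peptide precursor of the dorsomedial hypothalamus named for its size of difference, was at least 3.74-fold higher and was likewise highest on those arrays (11.47 and 11.39, against 7.38 to 10.23). Tac3, the neurokinin B precursor, was at least 1.63-fold higher. In the list for the arcuate nucleus and neighbouring hypothalamus 7 of 15 members were called higher in the PVN (46.7%, against 2.63% of all probe sets). In the same list 1 was called higher in the NTS (6.67%, against 2.98%). The share of punch tissue from neighbouring nuclei was not tested.

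Among 20 PVN neuropeptides and releasing hormones, 9 were higher in the PVN (45%, against 2.63% of all probe sets), 1 in the NTS (5%, against 2.98%), and the median difference was 1.12. Oxt was at least 26.2-fold higher in the PVN (difference 6.39 ± 1.43, adjusted p = 0.0042) and Avp at least 8.21-fold (4.25 ± 1.01, adjusted p = 0.0060). Without PVN Oil 1 and 3 the differences were 9.13 and 5.89. These arrays were the lowest of the PVN for both genes, so the larger differences follow from leaving them out. Within Oil-treated arrays alone neither was called (3.46, adjusted p = 0.25, and 1.69, adjusted p = 0.21), nor were Ucn3 (1.93, 0.13), Nts (2.24, 0.096) and Cck (1.65, 0.071). Ucn3, the urocortin 3 gene, was at least 1.22-fold higher. Nts (neurotensin) was at least 3.82-fold and Cck (cholecystokinin) 3.64-fold higher, both with overlap between regions. Cartpt, the CART precursor, was 5.73-fold higher (PVN 11.99 to 16.48, NTS 10.34 to 13.58), Gal (galanin) was at least 1.62-fold higher, and Pdyn (dynorphin) was at least 1.72-fold higher. Without PVN Oil 1 and 3 the calls of Cartpt (1.32, adjusted p = 0.075), Gal (1.32, 0.063) and Pdyn (0.76, 0.076) were lost, whereas Crh was called at 1.26. Pam, the enzyme that amidates many peptide hormones, was 2.61-fold higher in the PVN with no overlap (13.35 to 14.23 against 12.38 to 12.79). It was the only call among 11 secretory granule genes (9.09%, against 2.63% of all probe sets).

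A gene of glycine transmission gave the largest difference toward the NTS. Slc6a5, the neuronal glycine transporter GlyT2, read 14.04 to 15.62 in the NTS and 6.32 to 7.59 in the PVN, where 5 of 6 samples were below background. The fold change was at least 137 (difference -7.72 ± 0.27, adjusted p = 2.1e-09). Glra1, the adult alpha subunit of the glycine receptor, was 32.2-fold higher in the NTS (13.07 to 14.24 against 7.88 to 9.90). Glra2, the alpha subunit that predominates in the immature brain, was 3.49-fold higher in the PVN, and its PVN values spanned only 10.06 to 10.34 (NTS 7.90 to 8.78). Of the 8 measured glycine genes, 2 were higher in the NTS (25%, against 2.98% of all probe sets) and 1 in the PVN (12.5%, against 2.63%). The other 5 were not called. The list's median difference was -0.12, with 4 differences positive and 4 negative. Dao, the D-amino acid oxidase gene, was at least 4.01-fold higher in the NTS.

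The vesicular glutamate transporters differed by member. Slc17a6 (VGLUT2) was bright in both regions and 2.13-fold higher in the PVN, a call that was lost without PVN Oil 1 and 3 (0.75, adjusted p = 0.076). Slc17a8 (VGLUT3) was at least 1.57-fold higher in the PVN without overlap. Slc17a7 (VGLUT1) was at least 3.51-fold higher in the NTS, where it ran from 6.74 on NTS EB 3 to 10.48. Of 13 GABA-A receptor subunits, 4 were higher in the PVN (30.8%, against 2.63% of all probe sets) and 0 in the NTS. Gabrq (theta) was at least 2.98-fold higher, Gabre (epsilon) at least 2.47-fold, Gabrb2 (beta 2) 2.83-fold and Gabra4 (alpha 4) 2.47-fold, the last with overlap. The list's median difference was 0.81.

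Of 24 genes of dorsal vagal complex neurons, 11 were higher in the NTS (45.8%, against 2.98% of all probe sets) and 2, Cck and Calcr, in the PVN (8.33%, against 2.63%). Gcg was at least 13.8-fold higher in the NTS (difference -6.50 ± 0.73, adjusted p = 4.8e-05) and -7.45 without the NTS arrays numbered 3. Dbh was called at -2.58 with all samples below background. The noradrenaline transporter Slc6a2 (-2.24) and the vesicular monoamine transporter Slc18a2 (at least 1.91-fold) were higher in the NTS, and so was Prlh, the prolactin-releasing peptide of NTS noradrenergic cells (at least 2.57-fold). Pnmt, which makes adrenaline, was called at -1.65 but was below background in all 12 samples and lost its call without PVN Oil 1 and 3 (-1.51, adjusted p = 0.052). The difference of Th was -0.68 ± 0.97 (adjusted p = 0.61), and it was -2.27 (adjusted p = 0.039) without those arrays. Of 6 serotonergic genes, 2 were called, both higher in the NTS (33.3%, against 2.98% of all probe sets). Tph2, the brain enzyme of serotonin synthesis, was at least 1.24-fold higher (6.49 to 8.94 against 4.66 to 5.02). Slc6a4, the serotonin transporter, was called at -1.09 below background.

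Cholinergic and motor neuron genes were much higher in the NTS punches, but unevenly so. Of 11 measured, 7 were higher in the NTS (63.6%, against 2.98% of all probe sets) and 1 in the PVN (9.09%, against 2.63%), with a median difference of -3.996. Chat, the acetylcholine-synthesizing enzyme, read 12.34, 12.13 and 9.42 on NTS EB 1, 2 and 3, and 11.32, 11.37 and 6.95 on NTS Oil 1, 2 and 3, against 4.77 to 7.86 in the PVN. Only NTS Oil 3 overlapped the PVN, and the fold change was at least 8.55, with 5 of 6 PVN samples below background (difference -4.72 ± 0.85, adjusted p = 0.0011). Slc18a3, the vesicular acetylcholine transporter, whose gene lies within the first intron of Chat, was at least 17.4-fold higher, and Slc5a7, the choline transporter, at least 19.3-fold. Calcb and Calca, which encode calcitonin gene-related peptides, were at least 12.1-fold and 4.63-fold higher. NTS EB 3 and NTS Oil 3 were the lowest NTS samples for each of these 5 genes. Without those arrays the differences were -5.92 for Chat and -6.03 for Calcb. Within Oil-treated arrays alone Chat (-4.04, adjusted p = 0.074) and Slc18a3 (-4.31, 0.073) were not called. Nos1, the neuronal nitric oxide synthase, went the other way and was at least 2.85-fold higher in the PVN.

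Genes of large, fast-conducting axons separated the regions more evenly. Of 13 neurofilament and large axon genes, 9 were higher in the NTS (69.2%, against 2.98% of all probe sets) and all 13 had negative differences, with a median of -2.64. The neurofilament subunits Nefl, Nefm and Nefh were 10.7-fold, 10.2-fold and 17.2-fold higher in the NTS without overlap, and Prph, the peripherin of neurons that send axons into nerves, was at least 22.9-fold higher. The sodium channel subunit Scn4b was at least 27.3-fold higher (11.04 to 14.23 against 5.83 to 9.53), with PVN Oil 1 and 3 the highest PVN samples. The potassium channel Kcna1 and parvalbumin (Pvalb) were 6.25-fold and 4.11-fold higher. Pvalb overlapped between regions, with PVN Oil 1 and 3 (12.40 and 12.44) above NTS EB 3 (12.28). All 16 oligodendrocyte and myelin genes had negative differences, with a median of -0.89, against -0.0011 over all gene probe sets. Of them 5 were called higher in the NTS (31.2%, against 2.98% of all probe sets). Mbp, a main myelin protein, was 3.17-fold higher in the NTS, but PVN values ran from 11.25 to 14.21 and overlapped the NTS (13.44 to 15.44). Gjb1, the connexin of myelinating glia, was 3.86-fold higher, also with overlap.

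Receptors for feeding peptides were called only toward the PVN, 8 of 43 (18.6%, against 2.63% of all probe sets), with 35 not called and a median difference of 0.40. Calcr, the calcitonin and amylin receptor, was 13.5-fold higher (11.85 to 14.17 against 8.88 to 9.82, adjusted p = 1.1e-05). Mc3r, a melanocortin receptor, was at least 1.34-fold higher (6.78 to 9.01 against 4.59 to 4.85). The neuropeptide Y receptors Npy1r and Npy2r were at least 2.80-fold and 2.10-fold higher, the kappa opioid receptor Oprk1 2.60-fold and the somatostatin receptor Sstr2 at least 1.72-fold. Without PVN Oil 1 and 3 the difference of Sstr2 was 0.93, under the fold limit. The orphan bombesin-like receptor Brs3 was called at 1.61 below background. Among the 11 measured genes that the study set out to examine, 4 were called (Oxt, Avp, Mc3r and Npy1r). All were higher in the PVN (36.4%, against 2.63% of all probe sets). Mc4r, the melanocortin receptor that restrains feeding, did not differ beyond its error (8.20 ± 0.47 SD in the PVN and 8.24 ± 0.16 in the NTS, n = 6 each, adjusted p = 0.87). Ghsr, the ghrelin receptor (difference -0.11 ± 0.09), Oxtr, the oxytocin receptor (0.29 ± 0.12), Cckbr, a cholecystokinin receptor (0.96 ± 0.33), and Pomc, the melanocortin precursor (1.19 ± 0.68), were not called. Cckbr missed only the fold limit (adjusted p = 0.038) and was called without PVN Oil 1 and 3 (1.31, adjusted p = 0.017). Pomc was above background only on PVN EB 3, at 9.47.

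Of 6 nuclear steroid receptors only Esr1, the estrogen receptor alpha, was called (16.7%, against 2.63% of all probe sets higher in the PVN). It read 10.00, 10.18 and 10.14 on PVN EB 1, 2 and 3, 7.85, 11.06 and 8.22 on PVN Oil 1, 2 and 3, and 6.84 to 7.42 in the NTS, below background in every NTS sample. It was thus at least 4.35-fold higher in the PVN (difference 2.47 ± 0.45, adjusted p = 0.0012). Within Oil-treated arrays alone it was not called (1.88, adjusted p = 0.13). PVN Oil 1 and 3 were the lowest PVN samples for Esr1, as they were for Oxt, Avp and Lhx8. Over the list 4 differences were positive and 2 negative. Nr3c2, the mineralocorticoid receptor, was higher in the NTS without overlap and missed only the fold limit (-0.96 ± 0.13, adjusted p = 0.00020).

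Marker genes of other cell kinds were examined in the same way. Of 12 choroid plexus genes, 4 were higher in the NTS (33.3%, against 2.98% of all probe sets) with a median difference of -2.48. Ttr, the transthyretin gene that choroid plexus epithelium expresses at very high levels, was 107-fold higher in the NTS (difference -6.74 ± 1.33, adjusted p = 0.0020). It read 8.49, 11.45 and 17.91 on NTS EB 1, 2 and 3, and 17.65, 17.69 and 15.29 on NTS Oil 1, 2 and 3, against 7.57 to 8.37 in the PVN. Kcnj13 and Slc4a5, ion transport genes of the same epithelium, were at least 3.52-fold and 3.90-fold higher but were below background on NTS EB 1 and 2. Kcnj13 was also below it on NTS Oil 3 (7.29), and its values overlapped between regions. Tmem72, chosen by size of difference, followed the same arrays (7.17 and 7.65 on NTS EB 1 and 2, 14.72 on EB 3). Enpp2, expressed by choroid plexus and oligodendrocytes, was 4.12-fold higher. Within EB-treated arrays alone Ttr, Kcnj13, Slc4a5, Tmem72 and Enpp2 were not called. Gfap, the astrocyte filament, was 2.19-fold higher in the NTS with overlap. It was the only call among 13 astrocyte genes (7.69%, against 2.98% of all probe sets). Without PVN Oil 1 and 3, Kcnj13 (-3.77, adjusted p = 0.16), Slc4a5 (-3.63, 0.085) and Gfap (-1.07, 0.14) were not called. The calls of Gfap and Kcnj13 were also lost when any of 10 and of 8 of the 12 arrays was left out on its own (Gfap -0.97 to -1.57, Kcnj13 -3.12 to -5.29 over the 12). Of 14 tanycyte and ependymal, 8 blood cell and 11 housekeeping genes 0 were called, against 2.63% and 2.98% of all probe sets.

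**Figure D5:**
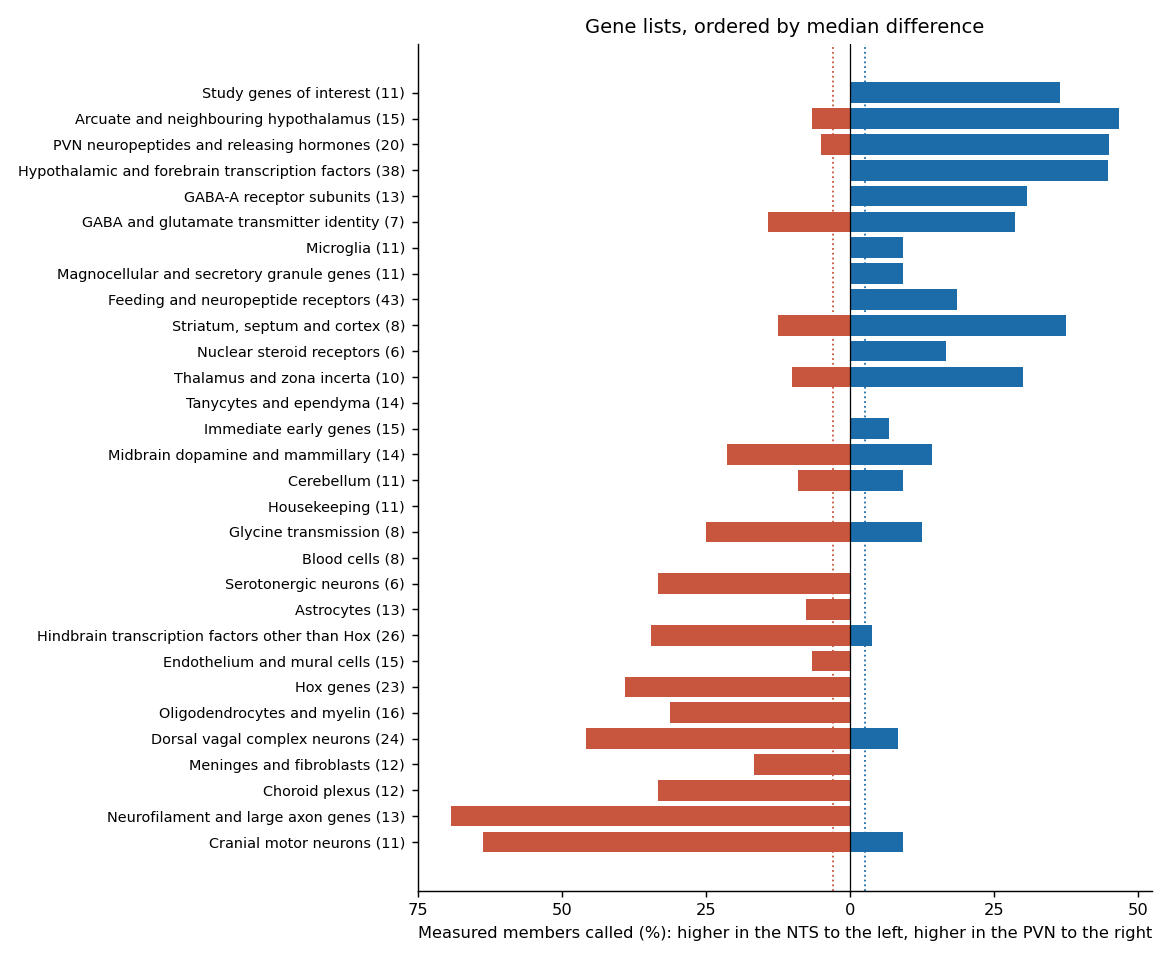
Share of measured members of each of the 30 gene lists called higher in the NTS (red, to the left) or in the PVN (blue, to the right), in percent, with the number measured in parentheses and dotted lines at the shares over all probe sets (2.98% and 2.63%). Neurofilament and motor neuron lists have the highest shares toward the NTS, 69.2% and 63.6%.

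Several genes outside the lists were among the 15 largest in each direction. Toward the PVN, Gpr50, an orphan receptor related to melatonin receptors, was at least 2.56-fold higher and highest on PVN Oil 1 and 3 (10.49 and 10.69, against 7.56 to 8.33). Nrgn, the postsynaptic protein neurogranin, was at least 9.62-fold higher, the calcium-binding copine Cpne5 at least 11.5-fold, and Asb4, a ubiquitin ligase subunit of hypothalamic neurons, at least 10.3-fold. Gstm6, a glutathione transferase, was at least 10.8-fold higher and Gpc3, a cell-surface proteoglycan, at least 7.37-fold. Toward the NTS, Hspb1, a small heat shock protein abundant in motor and sensory neurons, was at least 22.3-fold higher, with its lowest values on NTS Oil 3 (8.92) and EB 3 (10.38). Lamp5, a membrane protein of neurons, was 22.6-fold higher (14.10 to 15.85 against 10.12 to 11.60). Slc30a3, the transporter that loads zinc into synaptic vesicles, was at least 7.97-fold higher (10.03 to 10.78 against 5.80 to 6.32).

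Whether the regional difference depended on treatment was tested with an interaction term. No probe set passed an adjusted p of 0.05 (0 called, 0% of 23188, smallest adjusted p = 0.215), and 912 had an unadjusted p of 0.05 or less. The 5 named genes with the smallest p were Hrh3, Apob, Plscr1, Or1e26b and Or52j3. Hrh3, the histamine autoreceptor, read 9.84 to 10.06 in EB-treated and 9.07 to 9.27 in Oil-treated PVN samples, and 7.47 to 7.63 and 7.73 to 7.89 in the NTS. Its regional difference was larger after EB by 1.08 (adjusted p = 0.26). Plscr1, a phospholipid scramblase, had a treatment dependence of -1.12, and the apolipoprotein B gene Apob (1.18) and the olfactory receptor genes Or1e26b (0.93) and Or52j3 (0.86) were below background in all 12 samples. Hrh3 itself was 3.68-fold higher in the PVN over both treatments.

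The comparison within each treatment alone rests on 3 arrays a region. Of the 99 called genes named here, 17 were not called within EB-treated arrays alone and 20 were not within Oil-treated arrays alone, and none of the 99 changed sign in either. Besides those given above, the calls lost within EB-treated arrays were of Gabrb2, Gal, Gfap, Gjb1, Mbp, Pbx3, Pdyn, Pnmt, Slc17a7, Slc6a4 and Sstr2. Those lost within Oil-treated arrays were also of Cartpt, Gabra4, Gal, Gjb1, Npy2r, Pdyn, Plscr1, Prlh, Slc17a6, Slc6a3 and Slc6a4. Leaving out single arrays ended calls of 6 genes, Gfap and Kcnj13 as given above and 4 others. Slc6a3 lost its call without PVN EB 2, PVN Oil 1, PVN Oil 3, NTS Oil 1 or NTS Oil 2 (1.37 to 1.68). Pdyn lost it without PVN Oil 1, PVN Oil 3 or NTS EB 2 (0.97 to 0.99), and Slc17a6 without PVN EB 3, PVN Oil 1 or PVN Oil 3 (0.976 to 0.98). Slc6a4 lost it without NTS EB 1 (-0.95) or NTS Oil 3 (-0.88).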

How the data were processed

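Punch RNA was hybridised to Rat Clariom S Pico arrays. The authors deposited log2 signals per probe set, which the array service had background-adjusted and normalised over arrays. Transcriptome Analysis Console is named without a version in the submitters' processing notes, and the annotation build is not given in the sources used here. The 1646 control probe sets were left out of the tests, and the median of 23 background probe sets on each array served as its background level. All 23188 gene probe sets were fitted without a filter in limma 3.58.1 (R 4.3.3) with region and treatment as terms and Benjamini-Hochberg adjustment, and a second fit added their interaction. The methods give 3 rats per treatment, so regions apparently share rats, but the labels do not say which samples do, and the p-values treat the 12 samples as independent. Depth does not apply to arrays, whose number limits the precision. Through the platform annotation 15049 probe sets had 1 symbol and 8139 had none. Genes named were the 15 largest called in each direction without overlap, up to 5 members of each list by smallest p, all Hox genes, the study's genes and the 5 smallest interaction p. Otp, Th, Phox2a, Pbx3, Nr2f2, Pnmt, Chat, Slc18a3, Calca, Gabra4, Gabrq, Npy2r, Sstr2, Cartpt, Nts, Pdyn, Gal, Hcrt, Kcna1, Pvalb and Gfap fell outside that rule and were chosen after their values were seen. They were taken as members of marker lists in which single arrays stood apart. The comparison and the lists were chosen with earlier results of these data known. The scripts were tested on simulated data. Alternatives covered the covariate, the samples fitted, the replicate number as a block, scaling, filters, weights, the test and leaving out arrays.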

Additional observations from a re-analysis of the deposited data

Results flagged for a closer look

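In each region the highest and lowest of the 6 samples were set against the rest. This was done for every gene named above, other than Nr3c2, that was above background on at least 1 array. A sample was singled out where its gap to the nearest other sample as a share of the region's range exceeded Dixon's critical value. Chance gives this in about 1 in 20 groups of genes picked without regard to their values. Some of the named genes were taken from lists in which single arrays stood apart, among them Cartpt, Gal, Npy2r, Th and Gfap. That rate is therefore no measure for the count here. This held in 24 of 192 groups, 9 times above and 15 times below the other samples, and NTS Oil 3 accounted for 11 of them.

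On NTS Oil 3 the low genes were Gcg at 7.255, Th at 7.502, Gal at 4.861, Cartpt at 10.34, Npy2r at 5.798, Nr2f2 at 9.737, Gabra4 at 8.88 and Gabrq at 6.863. On the same array Cck at 11.32, Sim1 at 4.946 and Slc6a3 at 7.824 were the highest of the NTS. Of these values, Gcg, Gal, Npy2r, Gabrq and Sim1 lay below the array's background median, and Sim1 did so on every NTS array. On NTS EB 3 the large axon genes Nefh at 11.67, Nefl at 10.91 and Nefm at 13.54, and the glycine receptor gene Glra1 at 13.07, were the lowest of the NTS.

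On PVN EB 3, Fezf1 at 12.1, Gfap at 13.39, Lamp5 at 11.6 and Kcnj13 at 6.452 were the highest of the PVN and Gal at 7.244 was the lowest. On PVN Oil 2, Pmch at 10.22 and Pam at 13.35 were the lowest and Tmem72 at 6.531 was the highest. Kcnj13 and Tmem72 were below background in every PVN sample, and Gal was below it on PVN EB 3. On PVN EB 2, Mc4r at 9.111 was the highest. The cause of these differences was not tested.

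For 1 gene, Or52j3, all EB-treated PVN samples were above all EB-treated NTS samples and all Oil-treated PVN samples below all Oil-treated NTS samples. All 12 values were below background, and the treatment dependence of 0.861 did not pass the test (limma interaction term, adjusted p = 0.999).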

How the results depend on the processing

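The counts of 609 and 692 stayed within 1.5 times under all settings except the following. With probe sets kept only above the 95th percentile of background (10830 tested), 386 and 376 were called, fewer probe sets having been tested. When the test was made against a fold change of 2 itself, 94 and 94 were called. Leaving out 1 array at a time gave 559 to 674 and 629 to 767, with 561 and 629 without PVN Oil 2. Without PVN Oil 1 and 3, which stand apart by the midbrain gene values given above, the counts were 640 and 738. Of these, 551 and 609 were shared with the full set. Further settings, chosen after seeing the data, gave 618 and 739 without the NTS arrays numbered 3, and 703 and 835 without all 4 of these arrays. With the most alike Oil pairs averaged they gave 629 and 665. Of the 99 called genes named here, 50 lost their call in at least 1 setting, 11 when the test against a fold change of 2 and the split by treatment are not counted, and 0 changed sign.

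The replicate numbers were not taken to pair the samples, since no label says that they mark a rat. Deviations of same-numbered pairs correlated at -0.022 to 0.173, with 3 of 6 pairs over 0.1. Different-numbered pairs of the same treatment ran from -0.174 to 0.124. These correlations cannot decide whether the numbers mark shared rats. With the replicate block, 613 and 710 were called (609 and 682 shared), and no named gene lost its call. For the dependence on treatment, 912 probe sets passed by unadjusted p with all 12 arrays. Leaving out PVN Oil 1 and 3 left PVN Oil 2 as the 1 Oil-treated PVN sample, assumed to vary like the other groups. In that fit array and treatment cannot be told apart. Its treatment dependence was 2.24 for Tek, 3.23 for Adgrf5, 3.36 for Flt1 and -6.37 for a probe set without a symbol.

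Among genes that were not called, some differences changed sign. With EB arrays only they were 0.17 for Apob, 0.22 for Or1e26b and 0.17 for Mc4r. With Oil arrays only they were -0.27 for Or52j3 and 1.27 for Th. The difference of Mc4r was 0.11 without PVN Oil 1 and 3, 0.022 without the 4 arrays, 0.050 with Oil pairs averaged, and with single arrays left out ran from -0.22 to 0.030, above zero without PVN EB 3 (0.030), PVN Oil 3 (0.023), NTS Oil 1 (0.015) or NTS Oil 2 (0.0058). The cause was not tested.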

Other observations

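Of all gene probe sets, 16 fell into 2 separate levels over the 12 arrays, and 11 of these followed region. Of the 5 others, Foxa2, a forkhead factor of midbrain dopamine neurons among others, read 10.41 and 10.06 on PVN Oil 1 and 3 and 5.09 to 6.56 elsewhere. Tbx20, a T-box factor of hindbrain motor neurons, read 8.60 to 8.87 on 5 NTS arrays, 5.58 on NTS Oil 3, and less in every PVN sample, down to 4.49. Anxa10, an annexin, read 9.10 and 9.08 on NTS Oil 1 and 2 and 4.59 to 5.51 elsewhere. A probe set without a symbol read 11.02 to 11.84 on all 6 EB arrays and 11.76 on PVN Oil 2, and 4.78 to 5.27 on the other 5 Oil arrays. Another without a symbol read 9.88 and 9.68 on PVN Oil 1 and 3 and 4.44 to 5.61 elsewhere.

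The endothelial genes Tek, Adgrf5 and Flt1 read 7.67, 6.98 and 8.23 on PVN Oil 2, below all 11 other arrays, where the lowest values were 9.44, 10.00 and 10.98. The genes in this section were chosen after their values were seen.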
